A study of Sus scrofa with 2 samples.

Results

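The genes described here are 6 regulators of protein breakdown in skeletal muscle: the transcription factors FOXO1 and FOXO3, the ubiquitin ligases FBXO32, TRIM63 and MUL1, and the autophagy kinase ULK1. They were found in the deposited expression table by the symbol that a table of pig gene names gives to each Ensembl identifier, and each symbol was found on 1 entry. They are 6 of 27987 entries, 11374 of which carried a symbol, and all 6 passed the filter on low values (a mean of at least 1 RPKM) that left 13191 genes to compare. The members were chosen by the ratio of the heat to the control RPKM in these same libraries, known from earlier work on them, as genes at either end of a wider group of proteolysis and autophagy genes or as its best known ones, so every value below is a description and none is a test. The series asked how constant heat alters the transcriptome of the longissimus dorsi, a mostly fast-twitch muscle along the spine. The control library came from pigs kept at 22 °C and the heat library from pigs kept at 30 °C, in both cases for 21 days. All were barrows (castrated males) of the labelled breed DLY, a cross of Duroc boars with Yorkshire-Landrace sows. The study used 16 of them from 8 litters, weighing 79.0 ± 1.5 kg, with 8 in each arm; the labels give no age. There was 1 library per arm, and the sources used here do not say whether it pooled several pigs. Temperature, pigs, handling and library therefore cannot be told apart, and no difference below has a replicate check.

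Muscle loses protein mainly through the ubiquitin-proteasome system and through autophagy, in which a double membrane encloses cell contents and delivers them to the lysosome. In rodents, FOXO factors kept out of the nucleus by insulin signalling through the kinase AKT enter it when that signal is weak, as in fasting or under glucocorticoids, and raise transcription of the atrogenes, among them FBXO32 and TRIM63. ULK1 starts autophagosome formation, and its activity is set largely by phosphorylation, with AMPK activating it and mTORC1 holding it back. MUL1, a ligase of the outer mitochondrial membrane, marks the fusion protein mitofusin 2 for removal.

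Messenger RNA was measured as RPKM, read numbers divided by gene length and library total, so levels of different genes can be compared per length. The low values of the table allowed whole reads to be recovered, with library totals of 23608242 reads for the control and 22863584 for heat. A read on a gene of 1 kb was worth 0.0424 RPKM at 22 °C and 0.0437 at 30 °C. Differences are given as a log2 ratio, log2((heat RPKM + 1)/(control RPKM + 1)), which understates differences of low genes. The ratio of the plain RPKM values is given with its 95% Clopper-Pearson interval, called the counting interval, which covers counting error only. Over all genes compared, the median log2 ratio was 0.05 and 95% of genes lay between -0.57 and 0.66. Skeletal muscle markers were abundant, with the actin ACTA1 at 68749 RPKM at 22 °C and 65219 at 30 °C. The other markers found were DES (2203 and 2567 RPKM), NEB (758 and 677) and MYF6 (97.9 and 119), while CKM, TTN, RYR1 and MYOG are not analysed here.

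Both FOXO factors were higher in the heat library, with a higher ratio for FOXO3 than for FOXO1, though their counting intervals touched. FOXO3 (ENSSSCG00000004387), which drives both atrogenes and autophagy genes in mouse muscle, stood at 10.5 RPKM at 22 °C and 14.1 at 30 °C. These values rest on at least 611 and 797 reads, and the RPKM ratio was 1.35 with a counting interval of 1.21 to 1.50. Its log2 ratio was 0.40, and 8.51% of all genes compared had a higher one. FOXO1 (ENSSSCG00000009370), which also represses muscle differentiation and growth in mice, was the least abundant of the 6 in both libraries, at 5.97 and 6.69 RPKM from at least 758 and 823 reads. Its RPKM ratio was 1.12 (1.01 to 1.24) and its log2 ratio 0.14. The median RPKM ratio of all genes was 1.04. Relative to that median the interval of FOXO1 ran from 0.974 to 1.19 and held 1, while that of FOXO3 ran from 1.16 to 1.44.

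**Figure D1:**
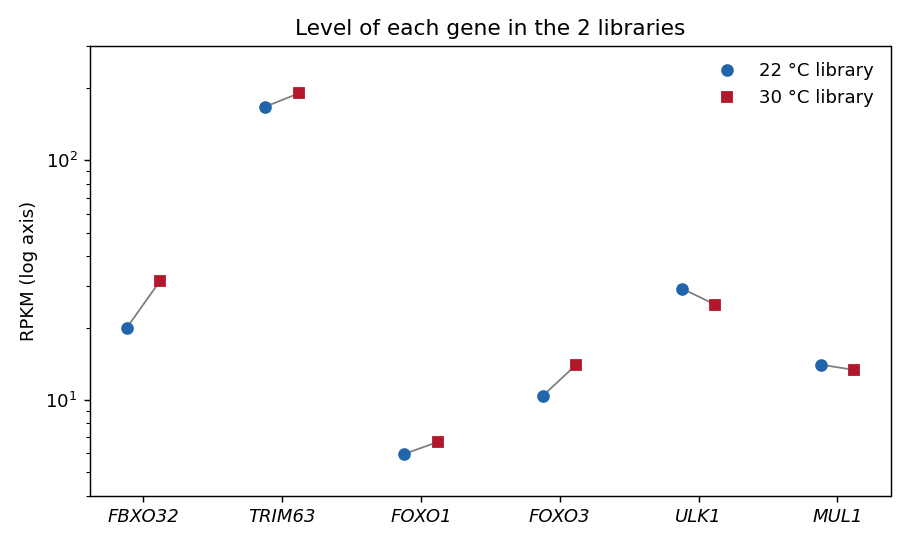
Level of the 6 genes in RPKM (log axis) in the 22 °C library (circles) and the 30 °C library (squares), joined by a line for each gene. Each point is 1 library, so there are no error bars. TRIM63 is highest in both libraries (168 and 190 RPKM) and FOXO1 lowest (5.97 and 6.69), and the line climbs most steeply for FBXO32 and slopes down for ULK1 and MUL1.

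FOXO4, a further family member named here after its values were seen, was far more abundant per length than FOXO1 and FOXO3. It stood at 58.3 RPKM at 22 °C and 65.0 at 30 °C (log2 ratio 0.15). Of the summed level of FOXO1, FOXO3 and FOXO4, FOXO4 made up 78.0% at 22 °C and 75.8% at 30 °C, FOXO3 14.0% and 16.4%, and FOXO1 7.99% and 7.80%. These shares need no library total, since each is taken within a library. FOXO6 is not analysed here. In the wider list of FOXO factors and cofactors, 9 of 12 genes were measured (matched by symbol and with a mean of at least 1 RPKM), with 7 above 0 and 2 below, against 58.8% above and 41.2% below among all genes compared. The list median was 0.15, against 0.05 for all genes, with 6 of the 9 higher than that of all genes. CITED2, a partner of the acetyltransferases CBP and p300, had the highest ratio, at 26.2 and 36.7 RPKM (log2 ratio 0.47). The p300 gene EP300 (12.2 and 11.4 RPKM, -0.08) and the CBP gene CREBBP (13.3 and 13.1, -0.02) were the lowest.

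The 2 atrogene ligases were both higher in the heat library, and by unequal amounts. FBXO32 (ENSSSCG00000005981) encodes atrogin-1 (MAFbx), an F-box protein that brings substrates such as MyoD and eIF3f to a cullin ligase. It stood at 19.96 RPKM at 22 °C and 31.3 at 30 °C, from at least 976 and 1484 reads. The RPKM ratio of 1.57 had a counting interval of 1.45 to 1.70, which does not overlap that of any of the other 5 genes except FOXO3 (1.21 to 1.50). Its log2 ratio of 0.63 ranked 390th among the 13191 genes, so that 2.95% of genes had a higher one. Among the 6416 genes with a mean of at least 5 RPKM, where counting error is smaller, 1.22% had a higher one. FBXO32 was the only one of the 6 at least 1.5-fold apart (log2 0.585). Of all genes compared, 3.44% were higher by that much and 2.37% were lower; this excess depended on the scaling, since centred log2 ratios gave 375 genes on the high side and 377 on the low side. FBXO32 lay just past that line and fell short of it in other settings, with 0.58 when log2 ratios were centred on the median of all genes, 0.57 after trimmed mean rescaling and 0.54 with a pseudocount of 5 RPKM. At 1.25-fold, FBXO32 and FOXO3 were higher and none of the 6 was lower, against 12.7% and 7.77% of all genes.

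**Figure D2:**
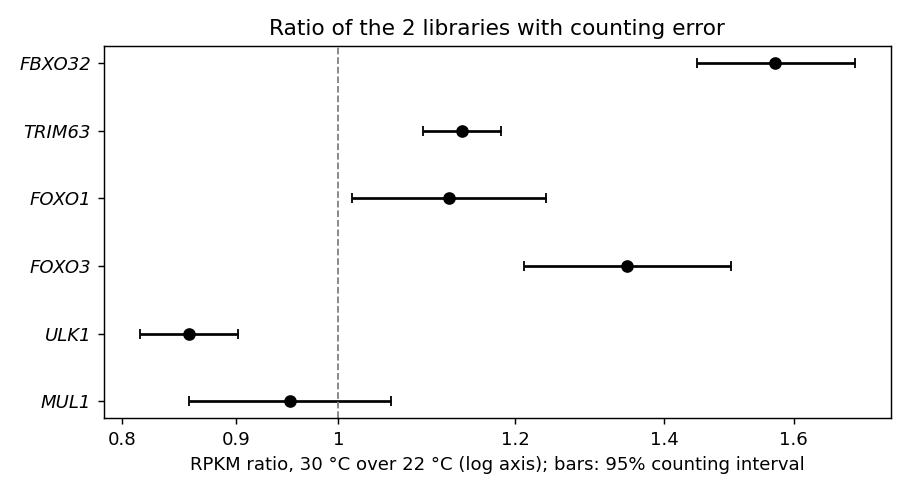
Ratio of RPKM in the 30 °C library to that in the 22 °C library (log axis) for each gene. Points are the ratio and bars the 95% counting interval from recovered reads, which holds no variation between pigs. The interval lies above 1 for FBXO32, FOXO3, TRIM63 and FOXO1, below 1 for ULK1, and holds 1 for MUL1 (0.858 to 1.06).

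TRIM63 (ENSSSCG00000027684) encodes MuRF1, a RING ligase of the sarcomere that marks thick filament proteins for degradation. It was the most abundant of the 6 genes, at 168 RPKM at 22 °C and 190 at 30 °C, from at least 4623 and 5086 reads. The RPKM ratio was 1.14 (1.09 to 1.18) and the log2 ratio 0.18, with 27.0% of all genes higher. Within the control library the level of TRIM63 was 8.39 times that of FBXO32, and within the heat library 6.07 times. These within-library ratios do not depend on the scaling of the libraries. The level ratio of TRIM63 to FOXO1 was nearly the same in both, 28.1 at 22 °C and 28.4 at 30 °C.

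Among muscle ubiquitin ligases linked to atrophy, no common direction was seen beyond that of all genes. Of 22 listed genes 18 were measured, 12 of them above 0 and 6 below, with a median of 0.04 against 0.05 for all genes. Only 8 of the 18 exceeded the median over all genes. FBXO32 was the highest, followed by NEDD4L, a HECT ligase of membrane channels, at 3.22 and 4.28 RPKM (log2 ratio 0.33). TRIM72, a ligase of sarcolemmal repair also called MG53, was the lowest at 209 and 173 RPKM (-0.27), and TRIM32, which acts on thin filament and Z disc proteins, came next at 4.71 and 4.08 (-0.17). FBXO30, a ligase also called MUSA1 and a FOXO-dependent atrogene in mice, and FBXO21, also called SMART, were named after their values were seen. FBXO30 stood at 4.28 and 4.74 RPKM (0.12), and FBXO21 at 5.42 and 5.48 (0.01). The counting intervals of both held 1.

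**Figure D3:**
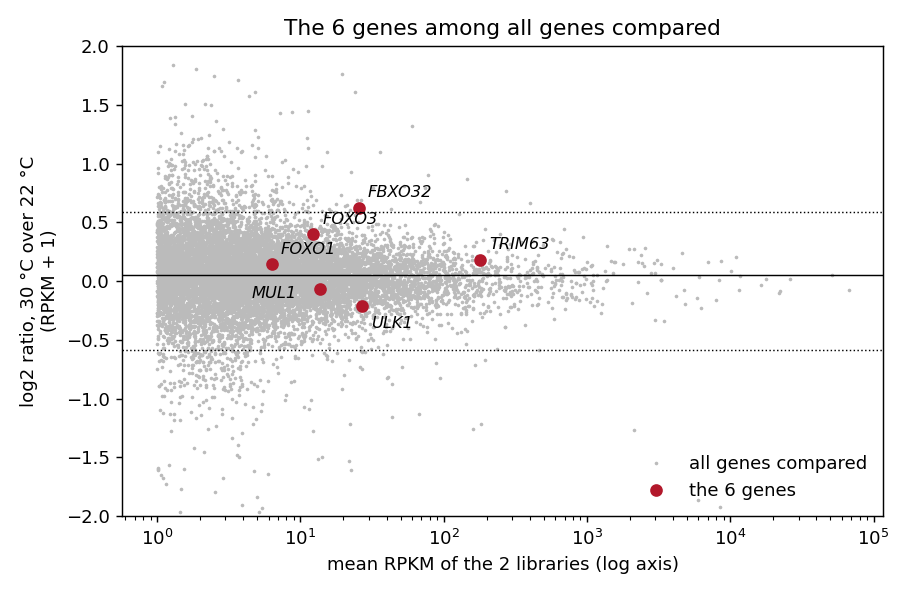
Log2 ratio (30 °C over 22 °C, on RPKM + 1) against the mean RPKM of both libraries (log axis) for the 13191 genes compared (grey) and the 6 genes (red), with 12 genes beyond the plotted range left out. The solid line is the median of all genes (0.05) and the dotted lines mark 1.5-fold. FBXO32 lies just above the upper dotted line while the other 5 lie inside both lines.

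ULK1 lay on the other side, with a lower level in the heat library. ULK1 (ENSSSCG00000009742) stood at 29.2 RPKM at 22 °C and 25.03 at 30 °C, from at least 3345 and 2776 reads. The RPKM ratio was 0.857 (0.815 to 0.901) and the log2 ratio -0.21, with 13.7% of all genes lower and 10.9% of those with a mean of at least 5 RPKM. It was the only one of the 6 whose counting interval lay below 1, as it did for 10.6% of all genes; for 4 of the 6 the interval lay above 1, as for 20.6% of all genes. Since the 6 were chosen for these values, nothing is read from those counts. Within the control library ULK1 was 1.46 times the level of FBXO32, and within the heat library FBXO32 was 1.25 times the level of ULK1, so their order was exchanged.

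The other genes of the ULK1 kinase complex were measured in part. Of 5 listed genes 3 were measured, 1 above 0 and 2 below, with a median of -0.14. ULK2, the paralogous kinase, stood at 42.0 and 38.0 RPKM (log2 ratio -0.14), and the interval of its RPKM ratio held 1 (0.785 to 1.04). ATG13, the subunit that links the kinase to its scaffold, stood at 4.97 and 5.55 RPKM (0.14), also with an interval that held 1. The scaffold gene RB1CC1 and ATG101 are not analysed here.

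Genes of later steps of autophagy lay mostly slightly above 0, where 58.8% of all genes compared also lay. For phagophore nucleation all 15 listed genes were measured, 11 above 0 and 4 below, with a median of 0.10, and 10 exceeded the median over all genes. RUBCN, the gene of the inhibitor Rubicon, had the highest ratio at 1.23 and 2.15 RPKM (log2 ratio 0.50), which rests on at least 93 and 157 reads. ATG2B, a lipid transfer protein of the growing membrane, followed at 2.11 and 2.99 RPKM (0.36). WIPI1 (17.7 and 16.5 RPKM, -0.10), which binds the phosphoinositide of that membrane, and the regulator AMBRA1 (4.67 and 4.44, -0.06) were the lowest. The intervals of 12 of the 15 held 1 and the other 3 lay above it. Among all genes compared, 20.6% of intervals lay above 1 and 10.6% below.

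For LC3 lipidation, the conjugation step that couples ubiquitin-like proteins to the membrane, 11 of 15 genes were measured, 9 above 0 and 2 below. The median was 0.14, and 7 exceeded the median over all genes, as many as lay above 0 after trimmed mean rescaling. ATG7, the activating enzyme of that step, stood at 4.75 and 5.91 RPKM (log2 ratio 0.26) and the LC3 relative GABARAPL1, a FOXO target in mouse muscle, at 10.97 and 13.3 RPKM (0.26). ATG10 (1.72 and 1.26 RPKM, -0.27, from at least 24 and 17 reads) and the protease ATG4D (14.7 and 12.9, -0.17) were the lowest. GABARAP itself was matched but had a mean under 1 RPKM (0.0953 and 0.0984), and since the treatment of reads matching several genes is not stated, values of related genes of this family are uncertain. Of 8 autophagy receptors 7 were measured, 6 above 0 and 1 below, with a median of 0.06, and 5 exceeded the median over all genes. After trimmed mean rescaling 4 of these 7 lay above 0, with a median of 0.005. SQSTM1, the gene of the receptor p62, stood at 211 and 250 RPKM, with an RPKM ratio of 1.19 (1.15 to 1.22). BAG3, a co-chaperone that routes damaged sarcomere proteins to autophagy, stood at 53.5 and 60.01 RPKM (log2 ratio 0.16). OPTN (141 and 132 RPKM, -0.09), a receptor of mitophagy, and WDFY3 (3.37 and 3.39, 0.01) were the lowest.

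**Figure D4:**
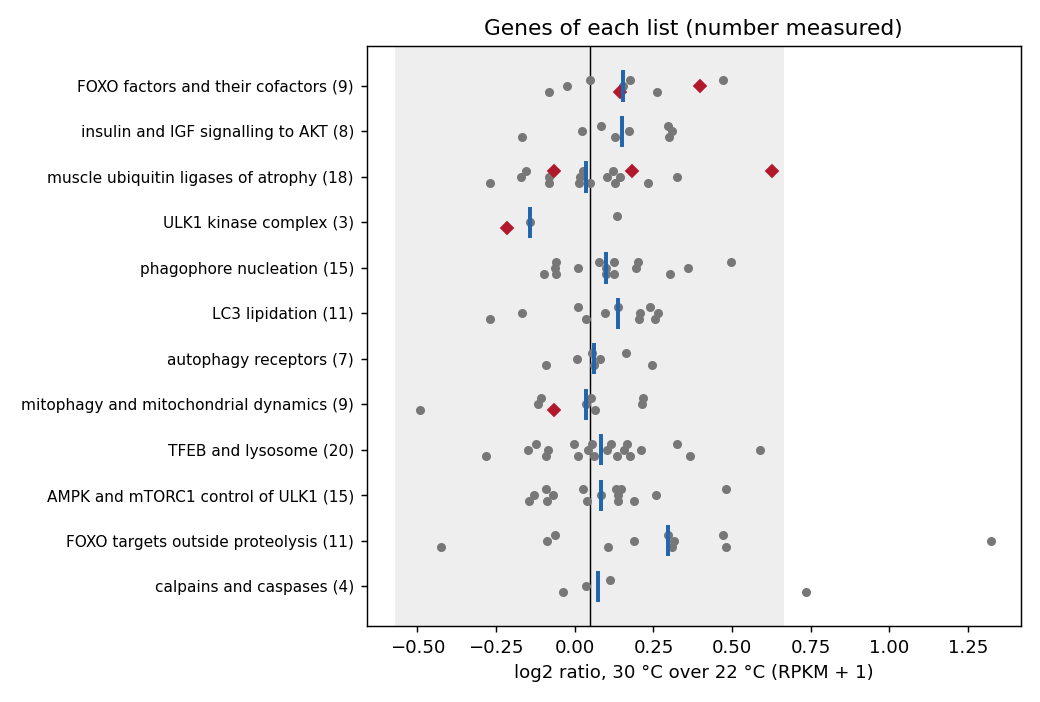
Log2 ratio (30 °C over 22 °C, on RPKM + 1) of each measured gene in 12 lists, with the 6 genes as red diamonds, other genes as grey points and each list's median as a blue bar. The black line is the median of all genes (0.05) and the shaded band holds 95% of all genes (-0.57 to 0.66). List medians run from -0.14 for the ULK1 kinase complex to 0.30 for FOXO targets outside proteolysis, and PDK4 and CASP6 lie beyond the band.

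MUL1 showed the smallest difference of the 6 as deposited. After centring on the median of all genes FOXO1 lay closer to 0 (0.09) than MUL1 (-0.12), and after trimmed mean rescaling FOXO1 did (0.09) while TRIM63 (0.12) and MUL1 (-0.12) were about equally far. MUL1 (ENSSSCG00000028045) stood at 14.1 RPKM at 22 °C and 13.4 at 30 °C, from at least 764 and 704 reads. The RPKM ratio of 0.951 had a counting interval of 0.858 to 1.06, so a difference was not detectable at this depth. Its log2 ratio was -0.07, with 30.1% of all genes lower. MFN2, the mitofusin that MUL1 acts on, stood at 40.5 and 37.3 RPKM (log2 ratio -0.12), with an RPKM ratio of 0.920 (0.881 to 0.960). In the list of mitophagy and mitochondrial dynamics only 9 of 19 genes were measured, 5 above 0 and 4 below, with a median of 0.04. This split turned with the scaling, with 4 of the 9 above the median of all genes and 3 above 0 after trimmed mean rescaling. The mitophagy receptors BNIP3L (6.05 and 7.20 RPKM, log2 ratio 0.22) and FUNDC1 (30.1 and 35.1, 0.21) were the highest. BNIP3, MFN1, DNM1L and FIS1 are among the genes not analysed here.

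Genes that FOXO factors are known to induce outside proteolysis had the highest median of the lists, 0.30, with 11 of 21 genes measured. Of these 8 lay above 0, all of them above the median of all genes, and 3 below. Several of those above 0 are shared with other lists, so the list medians are not separate observations. INSR and PIK3IP1 are also in the insulin and IGF list, and CITED2 in that of FOXO cofactors. SESN1 and EIF4EBP1 are also in the AMPK and mTORC1 list. PDK4, the kinase that inhibits pyruvate dehydrogenase, led at 33.8 and 86.1 RPKM, and the stress-induced mTORC1 inhibitor SESN1 followed at 35.0 and 49.2 RPKM (log2 ratio 0.48). GADD45B, a growth arrest gene, was the lowest at 6.86 and 4.86 RPKM (-0.42), and CCNG2, a cyclin of quiescent cells, came next at 8.37 and 7.81 (-0.09). The list was drawn up with the value of PDK4 known, and PDK4, SESN1 and most others of it also answer to other factors. CDKN1A, CDKN1B, GADD45A, KLF15 and IRS2 are among those not analysed here.

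Upstream of FOXO, insulin and IGF signalling to AKT had 8 of 16 genes measured, 7 above 0 and 1 below, with a median of 0.15, and 6 exceeded the median over all genes. The insulin receptor INSR (3.33 and 4.37 RPKM, log2 ratio 0.31) and the catalytic subunit PIK3CA (5.69 and 7.23, 0.30) were the highest. AKT2, the kinase isoform of insulin-stimulated glucose uptake, was the lowest at 87.2 and 77.5 RPKM (-0.17), with an RPKM ratio of 0.889 (0.845 to 0.936), and the growth factor IGF1 stood at 7.94 and 8.09 RPKM (0.02). AKT1 is not analysed here. For AMPK and mTORC1, which control ULK1, 15 of 21 genes were measured, 10 above 0 and 5 below, with a median of 0.08, and 8 exceeded the median over all genes. SESN1 was the highest, followed by RHEB, the activator of mTORC1, at 75.0 and 89.9 RPKM (0.26). The regulatory AMPK subunits PRKAG2 (3.84 and 3.37 RPKM, -0.15) and PRKAG3 (68.8 and 62.8, -0.13) were the lowest.

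For the lysosome, where autophagy ends, and its regulator TFEB, 20 of 21 genes were measured, 14 above 0 and 6 below, with a median of 0.08, and 12 exceeded the median over all genes. CTSS, the protease cathepsin S, was highest at 8.91 and 13.9 RPKM (log2 ratio 0.59), and LAMP2, a membrane protein of the lysosome, followed at 24.4 and 31.8 (0.37). CTSS is known as a gene of macrophages and other antigen-presenting cells. Of 6 macrophage markers 4 were measured, 1 above 0 and 3 below. Their summed level was 9.83 RPKM at 22 °C and 11.1 at 30 °C, and only CD68 was higher, at 3.61 and 5.36 RPKM. CSF1R stood at 2.42 and 2.41 RPKM, CD14 at 2.51 and 2.37, and MRC1 at 1.29 and 0.959. Their part in the CTSS difference was not tested. NEU1, an enzyme that cuts sialic acid from glycoproteins and glycolipids, was the lowest at 5.82 and 4.62 RPKM (-0.28). TFEB stood at 20.7 and 22.5 RPKM (0.12, named after its value was seen). Of calpains and caspases 4 of 10 genes were measured, 3 above 0 and 1 below, with a median of 0.07, and 2 exceeded the median over all genes. CASP6, an effector caspase, was the highest at 1.84 and 3.73 RPKM (0.74), from at least 55 and 108 reads, and the muscle calpain CAPN3 followed at 286 and 309 (0.11). CAPNS1 stood at 88.7 and 86.4 RPKM (-0.04) and CAPN1 at 44.3 and 45.5 (0.04).

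Over the 12 lists, 124 genes were measured of 176 listed, each counted once. Of these 88 lay above 0 and 36 below, with a median of 0.09 against 0.05 for all genes. At 1.5-fold, 4 of the 124 were higher and none was lower, where 3.44% and 2.37% of all genes were and 58.8% of all genes lay above 0. A share of 4 in 124 is near that of all genes. The 4 were PDK4, CASP6, FBXO32 and CTSS. After centring on the median or trimmed mean rescaling only PDK4 and CASP6 remained, and with a pseudocount of 5 RPKM only PDK4. At a pseudocount of 0.1 RPKM, RUBCN joined the 4 and 1 listed gene was lower by that much. With a mean of at least 5 RPKM, CASP6 was filtered out and PDK4, FBXO32 and CTSS stayed.

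Bulk RNA cannot tell fewer cells of a type from less RNA per cell, and the libraries also differed in some markers of other cells and fibre types. For scale, 58.8% of all genes compared lay above 0 and 41.2% below, and each marker list was small. Slow fibre markers had 4 of 6 genes measured, all above 0, with a summed level of 5403 RPKM at 22 °C and 6385 at 30 °C. Fast fibre markers had 3 of 8 measured, 1 above 0 and 2 below, with a sum of 40356 and 38978 RPKM. That sum is carried by TNNC2 and MYL1, while PVALB, the calcium buffer parvalbumin, stood at 226 and 93.7 RPKM (log2 ratio -1.26). Adipocyte markers had 3 of 6 measured, all below 0, with a sum of 24.4 and 16.0 RPKM, and ADIPOQ, LEP and FABP4 are not analysed here. Fibroblast markers had 5 of 6 measured, 4 of them below 0, with a sum of 901 and 817 RPKM. Endothelial markers (3 of 5 measured, 2 above 0 and 1 below) summed to 121 and 138 RPKM, mostly PECAM1 (111 and 127). Smooth muscle and pericyte markers (2 of 5, both above 0) summed to 57.8 and 73.8 RPKM, mostly ACTA2 (52.0 and 67.9). The other, PDGFRB, hardly differed, at 5.77 and 5.91 RPKM (log2 ratio 0.03), and the interval of its RPKM ratio held 1 (0.892 to 1.17). Schwann cell markers (2 of 4, both below 0) summed to 21.2 and 17.3 RPKM. Red blood cell markers (1 of 4 measured) summed to 89.5 and 113 RPKM, nearly all of it HBB. Lymphocyte markers (2 of 6, 1 above 0 and 1 below) summed to 2.24 and 3.02 RPKM. Of these CD2 stood at 0.750 and 1.81 RPKM and CD3D at 1.42 and 1.16. Satellite cell markers (1 of 4) summed to 15.1 and 14.9 RPKM. All sums include matched genes with a mean under 1. The only defining marker listed at 0 was SLC4A1 of red blood cells, in the heat library, and it stood at only 0.0188 RPKM in the control library. The part of these differences in the values of the 6 genes was not tested.

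**Figure D5:**
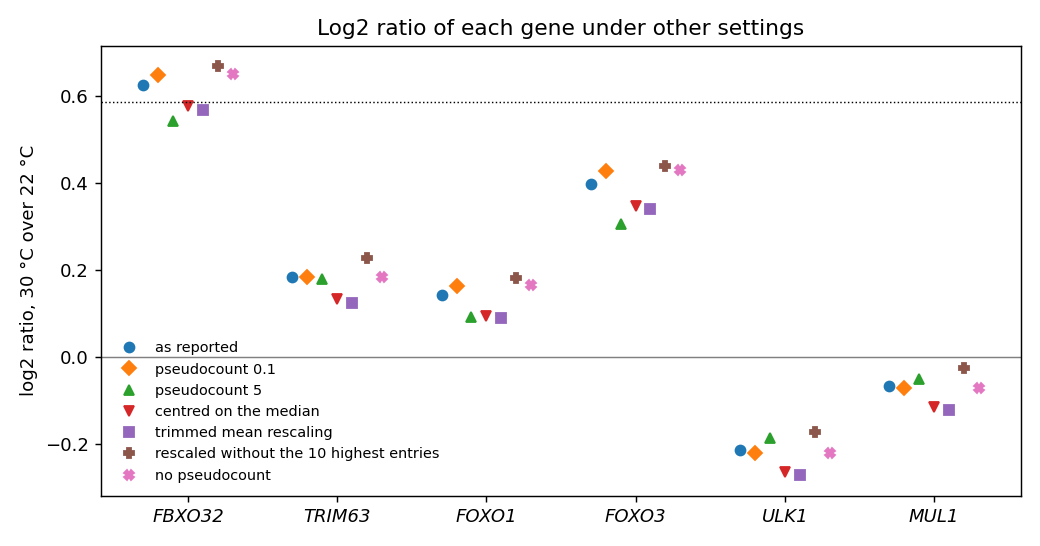
Log2 ratio (30 °C over 22 °C) of each of the 6 genes as reported and under 6 other settings of pseudocount or scaling, each a marker. The dotted line marks 1.5-fold. No gene crosses 0: FBXO32 runs from 0.54 to 0.67, FOXO3 from 0.30 to 0.44, ULK1 from -0.27 to -0.17 and MUL1 from -0.12 to -0.03.

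The direction of each of the 6 differences held under every scaling and pseudocount run. TRIM63 ran from 0.12 to 0.23 and FOXO1 from 0.09 to 0.18 on the log2 scale. The order of the 6 by log2 ratio was FBXO32, FOXO3, TRIM63, FOXO1, MUL1 and ULK1. In that order the counting intervals of neighbours overlapped for FBXO32 and FOXO3, for TRIM63 and FOXO1, for FOXO1 and MUL1, and for MUL1 and ULK1, but not for FOXO3 and TRIM63. The interval of FBXO32 did not overlap those of TRIM63, FOXO1, MUL1 or ULK1, and the interval of ULK1 overlapped only that of MUL1. Since the 6 were chosen with these ratios known, some from either end of a wider group, such gaps are a description only. In level per length, the order at 22 °C was TRIM63, ULK1, FBXO32, MUL1, FOXO3 and FOXO1, and no exact 95% Poisson intervals of neighbours overlapped. At 30 °C FBXO32 stood above ULK1 (29.8 to 33.0 against 24.1 to 26.0 RPKM), and FOXO3 (13.1 to 15.1) and MUL1 (12.4 to 14.4) overlapped. TRIM63 stayed first and FOXO1 last. These Poisson intervals cover counting error only. The order of levels between genes also rests on gene lengths and the treatment of multiply matching reads, which are not stated. With 2 libraries each gene has a single ratio, so no likeness of pattern to other genes was ranked.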

How the data were processed

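The deposited table holds 1 RPKM value per gene and library, computed by the authors. The tools Bowtie, TopHat 1.4.0 and Cufflinks 1.3.0 and the build Sscrofa10.2 come from the submitters' processing notes, which state neither their role nor their order. How reads were counted, what was done with multiply matching reads and which gene lengths were used is not stated there. Libraries were poly(A) selected from 3 µg of RNA, randomly primed and amplified over 10 cycles, per the labels' protocols. No marking of strand is described, so antisense reads cannot be told apart; in RefSeq's Sscrofa11.1 gene table no other gene overlaps any of the 6. Coordinates and sequences are not given, since no genome of the build was used.

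Reads were recovered as follows. The most frequent ratio among low genes gave the ratio of library totals, and 98.8% of 13134 low entries then gave pairs of whole reads, each 1000 or fewer (a wrong ratio gave 0.244%). The control total was the whole number at which the largest share of gene lengths came out whole (within 0.01 bp, 69.8% of 9412 entries), leaving out totals at which an undue share of lengths had a common factor. The smallest length with whole reads in both libraries was taken, so reads are minimums, counting intervals can be too wide, and for the most abundant genes the match can be by chance. Without molecular identifiers, PCR copies are counted as separate reads.

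With 1 library per group there is no test. A difference was called by size (1.5-fold or 1.25-fold) or given with its counting interval. The steps were tested on simulated data. Genes named are the 6, the 2 highest and 2 lowest of each list, and muscle markers. PECAM1, ACTA2, PDGFRB, HBB and the macrophage, lymphocyte and fast fibre markers were named after their values were seen. So were genes shared by lists and others marked so. Some genes that this rule takes are not reported here by name. The 6 genes and all lists were chosen with earlier results of these data known. Listed genes were matched by exact or listed older symbol. Python 3.11.15, numpy 2.4.6, pandas 2.3.3 and scipy 1.17.1 were used.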

Additional observations from a re-analysis of the deposited data

How the results depend on the processing

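No paired analysis was possible because there was 1 library per arm. All alternatives were planned except the ratio without a pseudocount, which was added after seeing the data. Of the 6 genes, only TRIM63 moved beyond its counting interval, to 0.12 on the log2 scale after trimmed mean rescaling; no gene turned direction. The counts of genes at least 1.5-fold higher and lower (454 and 313) changed to 934 and 565 at a pseudocount of 0.1, to 53 and 59 at 5, to 785 and 482 with no filter, to 97 and 69 with a mean of at least 5 RPKM, and to 87 and 41 among genes with a symbol. The excess of higher genes was nearly lost at 375 and 377 after centring and 373 and 366 after trimmed mean rescaling, and grew to 523 and 284 when rescaled without the 10 highest entries. Of list counts above 0, mitophagy went from 5 to 3 of 9 after trimmed mean rescaling, and phagophore nucleation from 11 of 15 to 4 of 6 with a mean of at least 5 RPKM, where fewer genes were tested. After rescaling, the median over all genes was between -0.0015 and 0.09, a shift under 0.1. Some changes follow from the settings themselves. A stricter filter or the need for a symbol leaves fewer genes, and no filter takes in more. A larger pseudocount damps the ratios of low genes, and centring shifts every log2 ratio by the same amount. The cause of the excess of higher genes as deposited was not tested. Depth limits what can be said of FOXO1 and MUL1, whose counting intervals lie close to 1 or hold it. For all 6 genes the spread between pigs and between libraries is unknown, since each arm had 1 library.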
